A study of Capra hircus with 6 samples.

Results

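Genes of protein folding chaperones and of the unfolded protein response were compared between Low and High CSN1S1 genotypes in the lactating mammary gland of goats. CSN1S1 encodes the milk protein alpha-s1-casein. The folding genes were taken by gene symbol: the heat shock protein families HSPA, HSPB, HSPD, HSPE, HSPH and HSP90, the J-domain proteins (DNAJ), the subunits of the chaperonin CCT, the protein disulfide isomerases (PDIA), the prolyl isomerases FKBP and PPI, and further named genes for folding and stress in the endoplasmic reticulum (ER), such as CALR, P4HB, ATF4 and DDIT3. This gave 65 of the 6535 singly named genes, read by 70 of the 8379 probes on the array. By the place of the protein, 17 of the 65 genes were put with ER folding, 7 with the degradation of ER proteins (ERAD) and the unfolded protein response (UPR), 32 with the cytosol and nucleus, 5 with mitochondria and 4 with other places.

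The 6 goats were in lactation and were all on a control diet without restriction. They formed 3 pairs of 1 Low and 1 High goat, and each pair was hybridised on 2 spotted arrays of 2 colours with the dyes swapped. Which alleles make up the Low and High genotypes, and the breed and age of the goats, is not known here. All values are log2 ratios of Low over High, and the pair is the replicate (n = 3), so a value above 0 means more RNA in the Low goat.

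A milk-making cell passes its caseins through the ER, where the HSP70 protein BiP (HSPA5) with its helpers, the HSP90 protein GRP94, the lectin chaperones and the disulfide isomerases fold them. When unfolded protein builds up there, the sensors IRE1, PERK and ATF6 switch on the unfolded protein response, which raises these chaperones through XBP1, ATF6 and ATF4 and, if stress lasts, induces DDIT3 (CHOP). Proteins that stay in the cytosol fold with other HSP70 and HSP90 proteins and with the CCT ring, whose genes answer to heat shock factor instead. In goats that make no alpha-s1-casein, other caseins have been described to be held up in the ER, which makes the ER genes a natural set to compare between CSN1S1 genotypes.

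The genotype labels were checked first on CSN1S1 itself, which fell by 2.43 ± 0.22 (SD, n = 3 pairs) and was lower in Low on 6 of 6 arrays (limma adjusted p = 5.13e-04). Of its 12 spots, 3 were marked saturated and kept at their value, so the size of this fall is as measured and not exact. Over all 6378 probes measured, 7 (0.110%) passed the adjusted threshold of 0.05, all in the same direction as CSN1S1. Per array, 74.1% to 82.2% of the spots with a probe carried no flag that removed them, and the number of arrays limits the precision. The spread between pairs covers differences between goats and between arrays together. RNA came from gland tissue and not from sorted cells, so fewer cells of a type and less RNA per cell cannot be told apart in any ratio.

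Of the 70 probes, 55 were measured, for 52 of the 65 genes, and 47 of the 55 gave a value on all 6 arrays. A probe counted as measured when every pair had at least 1 array with a signal over background, for Low or for High. Of the 55, 47 met this limit in both channels, 7 in Low alone (CCT7, DNAJB5, DNAJB6, DNAJC22, DNAJC27, FKBP3 and P4HB) and 1 in High alone (the dimmer CCT5 probe). The 13 genes below that limit were DNAJB9, ERP44 and FKBP9 of ER folding, HERPUD1 of the ERAD and UPR genes, DNAJC19 and PPIF of mitochondria, CCT2, DNAJB1, DNAJC13, DNAJC2 and FKBP5 of the cytosol, and DNAJC18 and DNAJC4 of other places. DNAJB9 and HERPUD1 are textbook targets of the unfolded protein response, and DNAJB1 is a textbook target of heat shock factor, and these are not among the measured genes. The symbols XBP1, ATF6, CANX, HSP90AB1, HSPE1 and PDIA3 had no singly named probe and are not analysed here.

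No chaperone or UPR probe passed the adjusted threshold: 0 of 55, beside 0.110% of all probes, with a lowest limma adjusted p of 0.732. At an unadjusted limma p under 0.05 there were 2 of 55 (3.64%), HSPA5 and DNAJC22, both higher in Low, beside 5.36% of all probes, 2.59% higher and 2.78% lower. DNAJC22 entered the measured set through the Low channel alone, so its direction is partly set by the filter, whereas HSPA5 entered through both channels. Where every array had to exceed background, 38 member probes remained and 0 were under 0.05 unadjusted. HSPA5 and DNAJC22 were not among these 38, so this count does not retest them. A single sign in all 3 pairs was seen for 17 of 55 (30.9%), 10 above and 7 below 0, beside 26.8% of all probes, 13.2% above and 13.6% below. These shares lie near those of all probes. A single sign on all 6 arrays was seen for 3 of 55 (5.45%), HSPA5, HYOU1 and DNAJC17, all above 0, beside 2.35% of all probes, 1.10% above and 1.25% below 0.

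The median standard error was 0.0516. With the background modelled, the 95% interval of 53 of the 55 probes lay within 0.5 of 0, a 1.41-fold difference either way. The exceptions were a dim CCT5 probe (interval -1.19 to 0.07) and DNAJC12 (-0.40 to 0.72). For dim probes these intervals do not bound the difference, as their ratios depended on the background correction. HSPA5, DNAJC22 and HSP90AA1 stood at 0.20, 0.15 and -0.13 with the background modelled. With it subtracted they were at 0.55, 0.42 and -0.34. The brighter ATF4 probe was at -0.08 either way. The median size of the ratio was 0.0353, compared with 0.0408 over all probes. By gene, taking the brightest measured probe, 30 of 52 lay above 0 and 22 below, with a median of 0.0094, while 51.2% of the 5066 named genes lay above 0 with a median of 0.0018. With the background modelled, a difference of over 0.25 was found for 1 of the 55 probes, the dim one of CCT5, beside 1.47% of all probes.

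**Figure D1:**
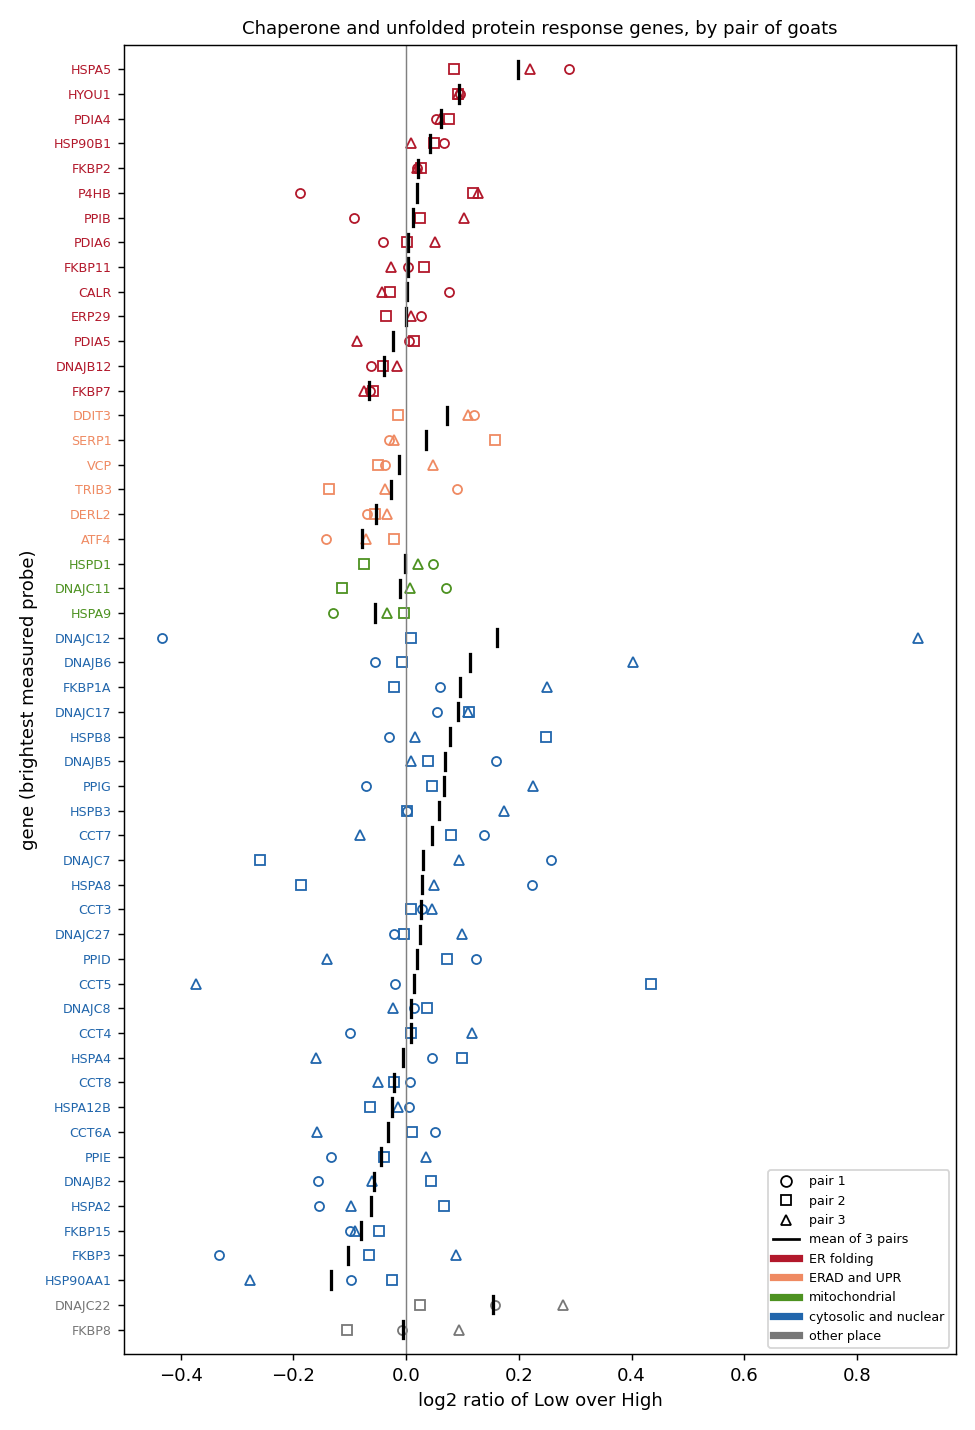
Log2 ratio of Low over High (x axis) for the 52 measured genes (y axis, brightest probe), with open symbols for the 3 pairs of goats and a black bar for their mean, coloured by the place of the protein. HSPA5 has the highest mean at 0.20, HSP90AA1 the lowest at -0.13, and the pairs of DNAJC12 reach from -0.43 to 0.91.

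Of the 17 ER folding genes, many of which work on secreted proteins such as caseins, 14 were measured. None passed the adjusted threshold, 10 lay above 0 and 4 below, and their median was 0.0080. With the background modelled, 13 of the 14 were within 0.1 of 0. Under some other settings HYOU1 and P4HB lay outside it. They were at 0.145 and 0.167 with the background subtracted, and at 0.105 and 0.212 in the authors' deposited values. The exception with the background modelled was HSPA5, which encodes BiP, the HSP70 protein of the ER and the best known marker of the unfolded protein response. The pairs gave 0.29, 0.09 and 0.22 for pairs 1, 2 and 3. Pair 2 was thus the lowest, and all 3 pairs were above 0. On the arrays with the Low goat in Cy5, HSPA5 stood at 0.17, 0.0046 and 0.10 in pairs 1, 2 and 3, and on those with Low in Cy3 at 0.40, 0.17 and 0.34. It was above 0 on 6 of 6 arrays, and in each pair the array with Low in Cy3 gave the higher value. The mean of 0.20 ± 0.10 (SD, n = 3 pairs; 95% interval 0.07 to 0.33) is a 1.15-fold difference that did not pass the limma test after adjustment (unadjusted p = 0.00988, adjusted p = 0.732). The probe was dim: it exceeded background in the Low channel on 5 of 6 arrays and in the High channel on 3 of 6, with a mean net signal of 83.1 scanner units in Low and 51.9 in High. With the background subtracted instead of modelled, its ratio was 0.55 (limma adjusted p = 0.834).

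The partners of BiP, and a J-domain protein of the ER membrane, showed small values. HYOU1, an exchange factor that recharges BiP, was at 0.10, 0.09 and 0.09 in pairs 1, 2 and 3. These 3 values nearly coincide, and the gene was above 0 on 6 of 6 arrays, from 0.01 to 0.17. Its mean was 0.09 ± 0.0018 (SD, n = 3 pairs; limma adjusted p = 0.885), and because limma moderates so small a spread, its 95% interval was -0.0079 to 0.19. HSP90B1, the HSP90 protein of the ER known as GRP94, stood at 0.07, 0.05 and 0.0094 in pairs 1, 2 and 3, all above 0 and lowest in pair 3 (mean 0.04 ± 0.03, limma adjusted p = 0.902). DNAJB12, a J-domain protein of the ER membrane that calls in HSP70, was on the other side of 0 at -0.06, -0.04 and -0.02 (mean -0.04 ± 0.02, limma adjusted p = 0.904).

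The disulfide isomerases, which make and reshuffle the disulfide bonds of secreted proteins, were represented by 5 measured genes with a median of 0.0041. PDIA4 was at 0.05, 0.08 and 0.06 in pairs 1, 2 and 3, a mean of 0.06 ± 0.01 (limma adjusted p = 0.885), and was the member of this family with 1 sign in every pair. PDIA6 was at -0.04, 0.0018 and 0.05, so its pairs fell on both sides of 0 around a mean of 0.0041 ± 0.05. PDIA5 had a mean of -0.02 ± 0.06. ERP29, a relative of the family without its redox activity, was at 0.03, -0.04 and 0.0088. P4HB, the founding disulfide isomerase, was at -0.19 in pair 1, 0.12 in pair 2 and 0.13 in pair 3, so pair 1 alone was below 0. Its mean of 0.02 ± 0.18 carried the largest spread of the 14 ER folding genes. The P4HB probe was above background on 3 of 6 arrays in each channel, and its value in pair 3 came from 1 array.

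CALR encodes calreticulin, a lectin chaperone that holds glycoproteins in the ER until they are folded. It stood at 0.08, -0.03 and -0.04 in pairs 1, 2 and 3, with a mean of 0.0018 ± 0.07 and a 95% interval of -0.11 to 0.12. The prolyl isomerases of the ER turn proline bonds. PPIB, or cyclophilin B, was at -0.09, 0.03 and 0.10 in pairs 1, 2 and 3, a spread across 0 with a mean of 0.01 ± 0.10. FKBP2 was at 0.02, 0.03 and 0.02, and FKBP11 had a mean of 0.0032 ± 0.03. FKBP7 was the lowest ER folding gene at -0.06, -0.06 and -0.07 in the 3 pairs, with a mean of -0.07 ± 0.0077 (limma adjusted p = 0.885), and it was below 0 on 5 of 6 arrays.

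Of the 7 ERAD and UPR genes, 6 were measured, none passed the adjusted threshold, and 2 lay above and 4 below 0 with a median of -0.02. ATF4, the transcription factor whose translation PERK raises, had 2 measured probes that differed in sign of the mean. The brighter probe was at -0.14 in pair 1, -0.02 in pair 2 and -0.07 in pair 3, below 0 in all pairs, with a mean of -0.08 ± 0.06 (limma adjusted p = 0.885). The dimmer probe was at -0.0011, 0.14 and -0.13 in the same pairs, on both sides of 0, with a mean of 0.0049 ± 0.13. DDIT3, the stress factor CHOP that ATF4 induces, was at 0.12 in pair 1, -0.01 in pair 2 and 0.11 in pair 3. Pairs 1 and 3 were thus above 0 and pair 2 near it, with a mean of 0.07 ± 0.08 (limma adjusted p = 0.885). TRIB3, a pseudokinase induced further down the same branch, was at 0.09, -0.14 and -0.04, with a mean of -0.03 ± 0.11. By the brighter ATF4 probe all 3 genes of this branch were below 0 in pair 2, by the dimmer one ATF4 was above 0 there, and in pairs 1 and 3 the genes took both signs.

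The other measured ERAD and UPR genes were DERL2, VCP and SERP1. DERL2, a derlin of the ER membrane, was at -0.07, -0.05 and -0.03 in pairs 1, 2 and 3, below 0 in each (mean -0.05 ± 0.02, limma adjusted p = 0.886). VCP, the ATPase that pulls proteins out of the membrane, had a mean of -0.01 ± 0.05. SERP1, a small protein that guards membrane proteins during ER stress, was at -0.03, 0.16 and -0.02, so pair 2 alone was above 0, with a mean of 0.04 ± 0.11.

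In the cytosol and nucleus, 27 of 32 genes were measured and none passed the adjusted threshold. They lay above 0 in 17 cases and below it in 10, with a median of 0.02 (63.0% above 0, beside 51.2% of all named genes). CCT7, DNAJB5, DNAJB6 and DNAJC27, above 0, and FKBP3, below 0, entered the measured set through the Low channel alone. HSP90AA1, the inducible cytosolic HSP90, was the lowest at -0.10 in pair 1, -0.03 in pair 2 and -0.28 in pair 3. It was below 0 in all pairs and furthest in pair 3, with a mean of -0.13 ± 0.13 (limma adjusted p = 0.885), from a probe above background on 3 of 6 arrays in Low and 5 of 6 in High. HSP90AA1 was -0.06 without pair 3, -0.08 with flagged spots kept and -0.34 with the background subtracted. HSPA8, the constitutive HSP70 of the cytosol, was at 0.22, -0.19 and 0.05 in pairs 1, 2 and 3. The pairs took both signs around a mean of 0.03 ± 0.21, a spread larger than the mean. HSPA4, an exchange factor of the HSP70 machine, had a mean of -0.0053 ± 0.14, HSPA2 of -0.06 ± 0.11 and HSPA12B of -0.02 ± 0.04. The small heat shock proteins HSPB8 and HSPB3 had means of 0.08 ± 0.15 and 0.06 ± 0.10, set for HSPB8 by pair 2 (0.25) and for HSPB3 by pair 3 (0.17).

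The CCT ring folds actin and tubulin from several kinds of subunit, which work in equal numbers. Of the 7 of these subunits that were among the members, 6 were measured with a median of 0.01, from CCT6A at -0.03 to CCT7 at 0.05, where CCT7 had 1 array in pair 1. CCT4 and CCT8 had means of 0.0092 ± 0.11 and -0.02 ± 0.03. CCT3 was at 0.03, 0.0080 and 0.05 in the 3 pairs and was the subunit with 1 sign in all of them. The remaining subunit, TCP1, was measured outside the symbol rule at 0.0067 ± 0.02. CCT5 was the exception in spread and was read by 2 probes. Its brighter probe was at -0.02 in pair 1, 0.44 in pair 2 and -0.37 in pair 3, with a mean of 0.01 ± 0.41. Its dimmer probe was at 0.05, -1.43 and -0.30, where the value of pair 2 came from 1 array (mean -0.56 ± 0.77, limma adjusted p = 0.885). The probes of this gene thus moved in opposite directions in pair 2, by 0.44 and by -1.43.

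J-domain proteins hand clients to HSP70, and 11 of their 18 genes were measured over all places. Of these, 8 lay above and 3 below 0 with a median of 0.03 (72.7% above 0, beside 51.2% of all named genes). DNAJB5, DNAJB6, DNAJC22 and DNAJC27, all above 0, entered the measured set through the Low channel alone. Their direction is thus partly set by the filter. DNAJC17, a nuclear member tied to splicing, was at 0.05 in pair 1, 0.11 in pair 2 and 0.11 in pair 3, above 0 on 6 of 6 arrays, with a mean of 0.09 ± 0.03 (limma adjusted p = 0.885). DNAJC12 had the widest spread of all 52 genes, with -0.43 in pair 1, 0.0092 in pair 2 and 0.91 in pair 3. The order of Low and High was therefore opposite in pairs 1 and 3. Both dye orientations showed it, at -0.64 and -0.23 in pair 1 and at 0.54 and 1.27 in pair 3, while pair 2 gave 0.05 and -0.03. In net scanner units DNAJC12 read 46.5, 58.2 and 180 in the Low goats of pairs 1, 2 and 3, and 97.5, 64.7 and 60.5 in their High partners. The Low goat of pair 3 was the high sample here, and the mean of 0.16 ± 0.68 is smaller than its spread (limma adjusted p = 0.923). DNAJB6 was likewise set by pair 3, at -0.05 (from 1 array), -0.0079 and 0.40, and within pair 3 by 1 array (0.91 against -0.11 on the other). DNAJC7 was at 0.26, -0.26 and 0.09 from a bright probe (mean 0.03 ± 0.26). Of the other cytosolic and nuclear members, DNAJB2 had a mean of -0.06 ± 0.10, DNAJC8 of 0.0096 ± 0.03 by its brighter probe, DNAJC27 of 0.02 ± 0.06 and DNAJB5 of 0.07 ± 0.08. For DNAJB5 (pairs 1 and 2) and DNAJC27 (pairs 2 and 3) 1 array stood for a pair.

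The cytosolic and nuclear prolyl isomerases also took both signs. FKBP15 was at -0.10, -0.05 and -0.09, below 0 in each pair (mean -0.08 ± 0.03, limma adjusted p = 0.885). FKBP1A, the small FKBP12 that binds rapamycin, was at 0.06, -0.02 and 0.25, and FKBP3 was at -0.33, -0.07 and 0.09, its pair 1 from 1 array. PPID, which works with HSP90, was at 0.12, 0.07 and -0.14. PPIE and PPIG, cyclophilins of the nucleus, had means of -0.05 ± 0.08 and 0.07 ± 0.15. Over all places, the 11 measured prolyl isomerases had a median of 0.0032.

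The 3 measured mitochondrial genes lay slightly below 0. HSPA9, the HSP70 of the matrix, was at -0.13, -0.0042 and -0.03 (mean -0.06 ± 0.07, limma adjusted p = 0.886). HSPD1, the chaperonin HSP60, had a mean of -0.0016 ± 0.06 and DNAJC11 of -0.01 ± 0.09, each with pair 2 below 0 and the other pairs above. Of the genes placed elsewhere, DNAJC22 was at 0.16 in pair 1, 0.03 in pair 2 and 0.28 in pair 3, the last from 1 array. Its mean of 0.15 ± 0.13 had an unadjusted limma p of 0.0393 and an adjusted p of 0.885, from a probe above background in High on 2 of 6 arrays. It was 0.03 with flagged spots kept (limma adjusted p = 0.949), 0.42 with the background subtracted and 0.09 without pair 3. FKBP8, an anchored prolyl isomerase, had a mean of -0.0062 ± 0.10.

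The ER folding genes were then set beside the cytosolic and nuclear ones. The median of the ER folding genes was 0.0126, 0.0260 and 0.0145 in pairs 1, 2 and 3. That of the cytosolic genes was 0.0011, 0.0087 and 0.0156 in the same pairs. The ER median was thus higher by 0.0115 in pair 1 and by 0.0173 in pair 2, and differed by -0.0011 in pair 3. Taken over the mean ratios of the genes, the ER median was lower, with a difference of -0.0111. With means of the genes in place of medians, the difference over the 3 pairs had the other sign, at 0.0094. On the single arrays the difference of medians was above 0 on 6 of 6, from 0.0128 to 0.119, while the difference of means was above 0 on 3 of 6, from -0.0142 to 0.0404. No test was made of this difference, as the classes were chosen with earlier results known.

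**Figure D2:**
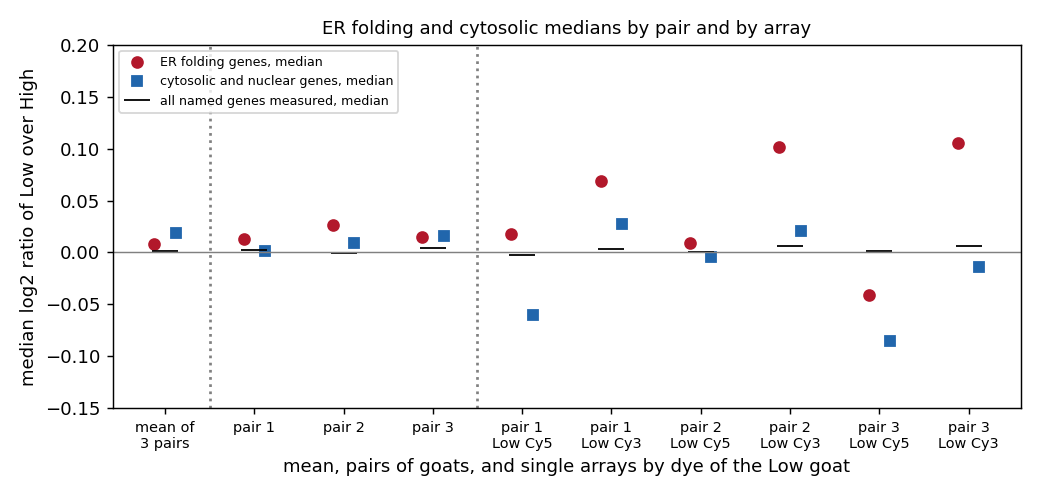
Median log2 ratio of Low over High (y axis) of the ER folding genes (red circles), of the cytosolic and nuclear genes (blue squares) and of all named genes (short lines), for the mean of 3 pairs, each pair and each single array (x axis). The ER folding and cytosolic medians by pair lie between 0.0011 and 0.0260, and those of single arrays reach from -0.0852 to 0.106.

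The classes also differed in how closely the 3 pairs repeated. The median SD between pairs was 0.0308 for the 14 ER folding genes, 0.068 for the 6 ERAD and UPR genes, 0.0651 for the 3 mitochondrial genes and 0.114 for the 27 cytosolic genes, beside 0.0785 for all named genes. An SD under 0.05 was found for 9 of 14 ER folding genes (64.3%), for 6 of 27 cytosolic genes (22.2%) and for 26.9% of all named genes. Among genes over background in both channels on all 6 arrays, the medians were 0.0286 for 11 ER folding genes, 0.111 for 17 cytosolic genes and 0.0702 for all 3258 such named genes, so the order was the same without the dim probes. A single sign in all 3 pairs was seen for 7 of 14 ER folding genes (50%) and 6 of 27 cytosolic genes (22.2%), beside 26.8% of all named genes. The cytosolic share is thus near that of all named genes. The 5 ER folding genes above 0 in every pair were HSPA5, HYOU1, PDIA4, HSP90B1 and FKBP2, and the 2 below were FKBP7 and DNAJB12. Among further genes outside the symbol rule, described below, the median SD was 0.0652 for 39 genes of ER entry, quality control and stress. It was 0.0642 for 26 cytosolic and mitochondrial helpers of folding, so these lists did not show the difference in spread. The difference between the ER folding and cytosolic genes was noticed after the values were seen and was not tested.

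**Figure D3:**
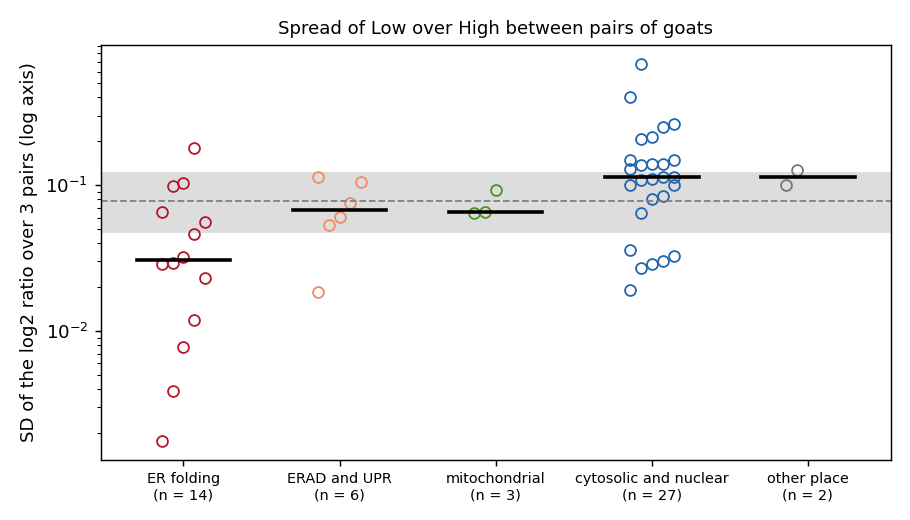
SD of the log2 ratio over the 3 pairs (y axis, log scale) for each measured gene (open circles), by the place of the protein (x axis), with a thick bar at each class median. The dashed line is the median of all named genes (0.0785) and the grey band their middle range, from the 25th to the 75th percentile (0.0475 to 0.122), and 9 of the 14 ER folding genes lie below 0.05.

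Single arrays of the ER folding genes differed more with the dye than with the genotype. A dye effect was taken as the ratio with the Low goat in Cy5 minus that with Low in Cy3, divided by 2, so that it cancels in the mean of a pair. Its median size was 0.219 for ER folding genes, 0.106 for cytosolic genes and 0.117 for all named genes. FKBP2 stood at 0.35, 0.58 and 0.47 with Low in Cy5 and at -0.31, -0.52 and -0.43 with Low in Cy3, in pairs 1, 2 and 3. Both sets are far from 0 on opposite sides, and their means per pair differed by less than 0.01. PDIA4 and PDIA6 were likewise above 0 on every Cy5 array and below 0 on every Cy3 array, whereas CALR, PPIB, PDIA5 and DNAJB12 were the other way round. The dye effect was larger than the ratio in 10 of 13 ER folding genes on all 6 arrays (76.9%) and in 37 of the 45 genes of all classes (82.2%), and this share was 86.2% over all named genes. It kept 1 sign over the 3 pairs in 25 of 45 (55.6%), beside 64.0% of all probes on 6 arrays.

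**Figure D4:**
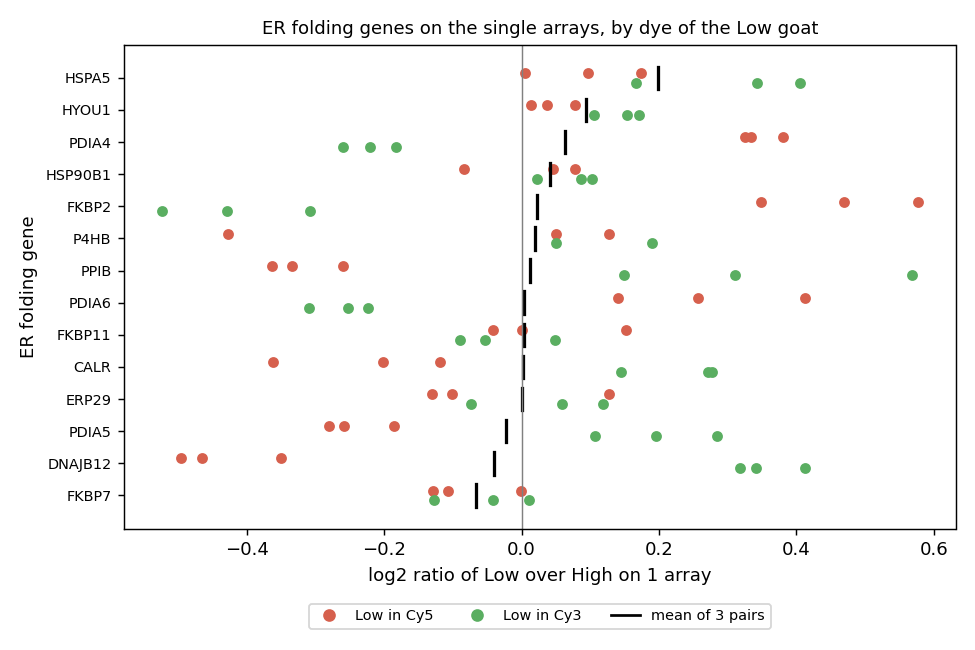
Log2 ratio of Low over High (x axis) of the 14 ER folding genes (y axis) on each array, with the Low goat in Cy5 (red) or in Cy3 (green), and the mean of the 3 pairs as a black bar. FKBP2 reaches from -0.52 to 0.58, HSPA5 and HYOU1 are above 0 on all 6 arrays, and P4HB has 5 arrays.

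Further genes of the same pathways, outside the symbol rule, were read from lists of known members. Of 45 genes on the array for entry into the ER, its quality control and its stress response, 39 were measured, 0 passed the adjusted threshold, and 27 lay above and 12 below 0 with a median of 0.03 (69.2% above 0, compared with 51.2% of all named genes). They ran from SRP68, a subunit of the signal recognition particle, at -0.11 ± 0.03 to NFE2L2, the factor NRF2 of the oxidative stress response that PERK also reaches, at 0.12 ± 0.10. Among direct targets of the unfolded protein response, MANF had -0.06 ± 0.07, CRELD2 -0.07 ± 0.04 and SDF2L1 0.06 ± 0.05, so these took both signs. Of 31 genes for cytosolic and mitochondrial helpers of folding, 26 were measured, 0 passed, and 14 lay above and 12 below 0 with a median of 0.0033. HSPBP1, a cofactor that releases nucleotide from HSP70, was the lowest at -0.23 ± 0.10 (limma adjusted p = 0.534).

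Plasma cells are the other secretory cell rich in ER that a gland holds, and 4 of 5 of their markers were measured, with MZB1 at 0.0052 ± 0.02, SDC1 at 0.04 ± 0.03, IGHG1 at -0.08 ± 0.09 and JCHAIN at -0.43 ± 0.63, none past the adjusted threshold. Of the milk-making epithelium, 8 of 9 markers were measured, 3 above and 5 below 0 by their brightest probes, and only CSN1S1 passed the adjusted threshold. PAEP was at -0.26 ± 0.11 (limma adjusted p = 0.424), LALBA at -0.19 ± 0.29, CSN1S2 at -0.07 ± 0.17 and GLYCAM1 at -0.07 ± 0.24. Above 0 were CSN3 at 0.19 ± 0.44, KRT18 at 0.13 ± 0.04 and KRT19 at 0.0022 ± 0.30. By their brightest probes all 5 markers of myoepithelium lay above 0 with a median of 0.08, compared with 51.2% of all named genes above 0, but a second probe of CNN1 was at -0.05. Of leukocyte markers 3 of the 4 measured lay below 0 (CD79A at -0.19 ± 0.08 the lowest), and both endothelial markers lay above 0. Both adipocyte markers lay below 0 by their brightest probes (LEP at -0.29 ± 0.21), but a second probe of LEP was at 0.0055 ± 0.04. Apart from CSN1S1, none of these cell type markers passed the adjusted threshold. Their part in the ratios of the chaperones was not tested.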

How the data were processed

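The authors measured the intensity of each spot and of its local background in both dye channels with ImaGene 6.0, per the labels and the file headers. The deposited background SD is a signal in the same scanner units, per the file headers. The authors also deposited a table of log2 ratios per spot, and neither their software nor their centring is known here. Set against the scanner ratios of Low over High on unflagged spots brighter than 10 on the log2 scale, the deposited log2 columns gave r of 0.988 to 0.998 across spots, which settled scale and direction. Their column medians ran from -0.0135 to 0.0205. The flags are the image software's codes, and spots flagged by hand or as empty were set to missing.

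Intensities were corrected with normexp (offset 50, background means) and normalised array by array with global loess, giving control spots no weight. This used limma 3.58.1 and statmod 1.5.0 in R 4.3.3. Each ratio was set as Low over High from the labelled dyes, which matched the header in 12 of 12 files. The 2 spots of a probe and then the 2 arrays of a pair were averaged. A probe was kept if, for Low or for High, its signal exceeded the background mean by 2 background SDs on at least 1 array of each pair. That left 6378 probes, each tested against 0 by limma (lmFit, eBayes; two-sided), and p-values were adjusted over all 6378 by the Benjamini-Hochberg method at a threshold of 0.05. With 3 pairs, the smallest two-sided p of an exact permutation of signs is 0.25, so single values were not tested alone. Intervals are at 95% and from the same fit, and SDs are over 3 pairs. A gene with several probes was represented by its brightest measured probe, and levels of different probes were not compared. The limma fit and its adjustment were tested on simulated pair means, and the steps before them were not.

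The probes carry cattle identifiers, and their match to the goat transcripts was not tested. Gene names came from the platform annotation, and all 65 symbols occur in the RefSeq genes of goat (ARS1.2), used for names alone. No genome build or probe sequence was used here, so neither coordinates nor sequences are printed. The members, their classes and the gene lists were chosen with earlier results of these data known. Genes given with values were the central chaperones and UPR genes by name, the 3 of each class with the lowest unadjusted p, and those with 1 sign on all 6 arrays. Other genes are named to fill out their family, having been picked after their values were seen. The alternatives covered the background correction, the normalisation, the deposited values, the filter, the flags, the variance model, the pair as a random block, each dye orientation alone and each pair left out. No per-sample column was left unmapped.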

Additional observations from a re-analysis of the deposited data

Results flagged for a closer look

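For the 24 named genes or medians with enough arrays, the array values were searched for 1 value far from the rest. P4HB, a disulfide isomerase of the ER, was picked out: on the array of pair 1 with the Low goat in Cy5 it stood at -0.43, whereas the other 4 arrays lay between 0.05 and 0.19. The gap to the nearest of them was 0.773 of the whole range. Chance picks out about 1 in 20 such sets. The probe was above background on 3 of 6 arrays in each channel.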

How the results depend on the processing

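The number of chaperone and UPR probes past the adjusted threshold was 0 under all 15 alternatives that keep a test, with 0 to 6 at an unadjusted limma p under 0.05, while the calls over all probes ranged from 2 to 32. HSPA5 stayed above 0 in all 16 alternatives, from 0.09 to 0.55, with a limma adjusted p of 0.216 to 0.999. HYOU1 stayed above 0 in all 17, from 0.04 to 0.15. The medians of the classes were small, and some choices moved them, more often for the cytosolic than for the ER folding median. The cytosolic median was 0.0301 with the background subtracted, 0.0287 with no background correction, 0.0287 with loess within sub-grids and 0.0310 in the authors' deposited values. With median centring the ER folding median was -0.0035 and the ER minus cytosolic difference -0.0213, and the difference was -0.0228 with the background subtracted. On the 3 arrays with Low in Cy5 the ER folding median was -0.0106, the cytosolic one -0.0495 and the difference 0.0390, and with Low in Cy3 they were 0.0703, 0.0423 and 0.0280. With 1 pair left out, the ER folding median ranged from 0.0112 to 0.0249, the cytosolic from -0.0042 to 0.0073 and the difference from 0.0144 to 0.0177, so the sign of the difference was not stable. The median SD between pairs was lower for ER folding than for cytosolic genes under all 14 alternatives, at 0.0615 and 0.181 with the background subtracted, 0.0567 for ER folding with no background correction and 0.0554 in the deposited values. With 1 pair left out it ranged from 0.0180 to 0.0364 for ER folding and from 0.0504 to 0.122 for cytosolic genes, lowest for both without pair 3. Over 11 alternatives, ER folding genes with 1 sign in all pairs numbered 5 to 7 and cytosolic ones 3 to 8. In the deposited values they were 5 of 14 and 6 of 27, and with median centring 7 of 14 and 8 of 27. Where every array had to exceed background they were 5 of 11 and 3 of 17. These counts and spreads, and their alternatives, were chosen after seeing the data.

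Single genes near 0 took the other sign as follows. CALR was at -0.0094 with no background correction, -0.0074 with median centring, -0.0087 with sub-grid loess and -0.0067 in the deposited values, DNAJC11 at 0.0208 with no background correction and 0.0169 in the deposited values, HSPD1 at 0.0209 with sub-grid loess and 0.0057 in the deposited values, and HSPA8 at -0.0012 with sub-grid loess. PDIA6 was at -0.00080 with background medians and -0.0011 with median centring, PPIB at -0.0059 with median centring, and P4HB at -0.0481 with flagged spots kept and -0.0168 with the pair as a random block. With 1 pair left out, CALR ranged from -0.0355 to 0.0239, HSPA8 from -0.0686 to 0.137, DNAJC11 from -0.0526 to 0.0391, FKBP8 from -0.0565 to 0.0433, HSPD1 from -0.0263 to 0.0350, P4HB from -0.0347 to 0.123, PDIA6 from -0.0198 to 0.0268 and PPIB from -0.0335 to 0.0642. With 1 dye orientation alone, further genes took the other sign. On the arrays with Low in Cy3, DDIT3 was at -0.17 and PDIA4 at -0.22. On those with Low in Cy5, HSPA9 was at 0.19 and FKBP15 at 0.03. The cause of these moves was not tested. The dim probes (HSPA5, HSP90AA1, P4HB) are limited by their signal over background. Each array holds both goats of a pair, so every ratio is already within a pair.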
